A study of Homo sapiens with 6 samples.

Results

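The genes described here are 49 named genes of DNA replication and mitosis, measured by RNA-seq in hFOB 1.19, an immortalised human fetal osteoblastic cell line. They were chosen by name, as S-phase, kinetochore and other mitotic genes, and were 49 of the 35639 genes in the table of values. All 49 passed the filter on low values (a mean of at least 10 over the libraries compared), as did 16259 genes in all. The study asked what the histone variant H3.3 carrying the G34W substitution of giant cell tumour of bone does in cells of the osteoblast lineage. hFOB 1.19 carries a temperature-sensitive large T antigen and proliferates at 34 °C, the temperature at which every culture was kept. Cells were transduced with lentivirus for HA-tagged H3.3-G34W (G34W below), for HA-tagged H3.3-WT (WT below), both made from a Drosophila H3.3 cDNA, or for the empty vector (EV), all with a dTomato marker, and were sorted in bulk by fluorescence, so that no group is a single clone. Poly(A) RNA was collected 15 days after transduction in 2 libraries a group. Several infections were used in the study, but whether the 2 libraries of a group came from separate ones is not given in the sources used here, so p-values rest on the spread between these libraries alone.

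Most of these genes are transcribed periodically in dividing cells. Before S phase, CDC6 and CDT1 load the MCM helicase onto origins, and E2F transcription factors, released from the RB proteins by cyclin and CDK activity, drive the genes for licensing, the replication clamp and deoxynucleotide supply. Later, in G2 and mitosis, FOXM1 and MYBL2 drive the genes for cyclin B, the mitotic kinases, the kinesins and the kinetochore, the protein assembly that holds each chromosome to spindle microtubules. Large T binds the RB proteins and so bypasses the usual restraint on E2F, and in hFOB 1.19 it is active at the permissive temperature of 34 °C. Here 20 members were placed in a G1/S list and 29 in a G2/M list by the phase in which they are known to peak.

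The promoters of the members carry different letters in the 2 lists. Promoters were 300-base windows from RefSeq (GRCh38.p14), from 250 bases before to 50 bases after the start, and 41 of the 49 genes had 1 or more, 52 windows in all. The cell cycle homology region (CHR, TTTGAA or TTTAAA on either strand), through which the DREAM complex and MYBL2 with FOXM1 act on late genes, was present in 22 of 30 G2/M windows (73.3%) and 2 of 22 G1/S windows (9.09%), against 23.99% of all 35116 windows. An E2F motif (TTCCCGC or TTCGCGC, and also TTGCCGC or TTGGCGC, on either strand) was present in 16 of 22 G1/S windows (72.7%) and 9 of 30 G2/M windows (30.0%), against 13.0% of all. The NF-Y box (CCAAT on either strand) was found in 15 of 22 G1/S windows (68.2%) and 22 of 30 G2/M windows (73.3%), against 34.6% of all. A match is a description of the letters and not of binding. The CHR and E2F letters thus divided the lists, and the NF-Y box had a similar share in both.

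**Figure D1:**
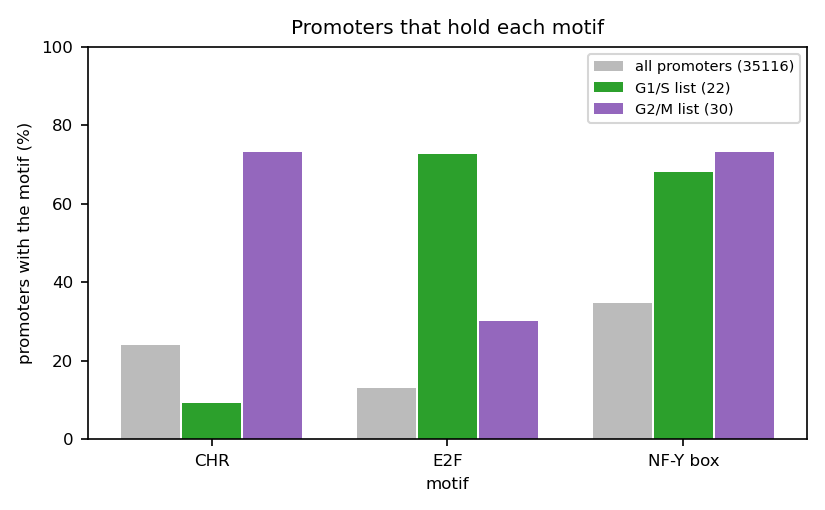
Share of promoter windows (vertical axis, %) that hold each motif, for all windows and for the windows of the G1/S and G2/M members; the number of windows is in the key. CHR letters stood in 73.3% of G2/M and 9.09% of G1/S windows, and E2F letters in 30.0% and 72.7%.

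The upstream bases of 5 members described below are shown, and whether they bear on the values was not tested. SKA1, CENPE and CCNB1 act in mitosis, and MCM6 and CCNE1 act at the start of S phase. Capitals mark the CHR, E2F and NF-Y letters on either strand, and each run is given from 5′ to 3′ on the gene's strand.
SKA1 (chr18:50374796-50375045, plus strand): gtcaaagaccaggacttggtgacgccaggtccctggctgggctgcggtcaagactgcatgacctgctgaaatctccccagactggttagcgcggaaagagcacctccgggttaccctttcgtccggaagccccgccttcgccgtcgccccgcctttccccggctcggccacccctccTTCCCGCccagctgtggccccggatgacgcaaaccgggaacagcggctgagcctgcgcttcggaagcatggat
CENPE (chr4:103198344-103198593, minus strand): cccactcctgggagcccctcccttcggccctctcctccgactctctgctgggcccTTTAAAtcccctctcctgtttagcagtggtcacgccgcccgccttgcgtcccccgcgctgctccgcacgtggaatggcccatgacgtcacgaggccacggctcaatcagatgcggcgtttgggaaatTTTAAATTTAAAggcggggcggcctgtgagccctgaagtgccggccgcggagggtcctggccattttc
CCNB1 (chr5:69166900-69167149, plus strand): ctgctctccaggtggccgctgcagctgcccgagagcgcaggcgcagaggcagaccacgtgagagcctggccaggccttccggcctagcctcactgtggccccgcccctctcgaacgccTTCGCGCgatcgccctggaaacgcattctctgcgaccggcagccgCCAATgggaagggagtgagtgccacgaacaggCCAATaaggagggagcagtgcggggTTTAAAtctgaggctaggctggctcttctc
MCM6 (chr2:135876444-135876693, minus strand): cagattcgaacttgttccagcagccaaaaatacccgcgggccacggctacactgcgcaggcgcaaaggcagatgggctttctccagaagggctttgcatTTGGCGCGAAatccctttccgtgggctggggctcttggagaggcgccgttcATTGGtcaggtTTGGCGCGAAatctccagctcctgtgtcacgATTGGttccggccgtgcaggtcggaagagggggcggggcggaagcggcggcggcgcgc
CCNE1 (chr19:29811741-29811990, plus strand): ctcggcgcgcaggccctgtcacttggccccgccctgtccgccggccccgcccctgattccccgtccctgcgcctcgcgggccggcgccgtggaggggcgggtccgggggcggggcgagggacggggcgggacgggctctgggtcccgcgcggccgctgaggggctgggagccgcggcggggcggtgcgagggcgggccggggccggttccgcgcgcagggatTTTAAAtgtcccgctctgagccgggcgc
In MCM6, a pair of E2F matches overlaps at each of 2 places, and 2 NF-Y boxes lie nearby. CCNB1 has an E2F match, 2 NF-Y boxes and a CHR match that begins at base -30 from the start. CENPE has CHR letters at 3 positions, of which 2 adjoin. The SKA1 window has an E2F match upstream and CHR letters that begin at base 35 after the start, outside the bases shown. CCNE1 has 1 match, to the CHR letters.

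Some libraries stand apart and set how the values can be read. Of the 49 members, 31 were listed at 0 in EV replicate 1, as were 80.5% of all genes there; that library was left out, so EV is represented by EV replicate 2 alone, with no spread of its own. G34W replicate 1 held transcripts of pluripotent stem cells: the 12 marker genes summed to 66576 there, with POU5F1 the most abundant, and to between 964 and 1142 in the other 4 libraries compared. POU5F1 itself was 19441 in G34W replicate 1 and 41.6 to 75.4 in the others. Epithelial EPCAM and CDH1 were also high in that library alone (2175 and 2104, against at most 64.9 elsewhere), while the epithelial list as a whole, led by KRT18, summed to between 36108 and 47217. The osteoblast and mesenchymal markers summed to 385204 to 568340 in the 5 libraries, led by VIM, but genes of that list differed widely in level. IBSP, a gene of mature osteoblasts, was listed at 0 in 4 of the 5 and 2.50 in EV replicate 2. BGLAP was 4.08 to 44.9, RUNX2 236 to 573 and ALPL 107 to 1216 across the 5, while COL1A1 was at least 24757 and SPARC at least 72998. Myeloid markers summed to between 1091 and 1447, mostly CD68, with AIF1 at or near 0, and endothelial markers to between 876 and 2324, mostly TEK, with CDH5 near 0 and KDR at 656 in G34W replicate 1 against 26.6 to 78.3 in the others. The part that the stem cell transcripts had in any difference was not tested, and log2 fold changes with G34W are therefore also given without G34W replicate 1.

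Groups were taken from the titles of the libraries. In the genotype entries the names G34W and WT are swapped, and under them every sign of G34W against WT below would be reversed. The results of G34W against EV and of WT against EV would then change places. The columns of the table of values carry the names in the titles. The transcript of the Drosophila transgene was not analysed here.

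In the comparison of G34W with WT no member, and no gene of the 16259, passed limma's adjusted p of 0.05 (0 called, 0%). At an unadjusted p under 0.05 there were 439 genes (2.70%), and 3 of the 49 members: SKA1, a kinetochore gene, lower in G34W, and CCNE1 and MCM6, genes of S-phase entry, higher. Against EV, G34W likewise gave 0 called (0%), with 317 genes (1.95%) and 2 members, SKA1 and CENPE, at an unadjusted p under 0.05. WT against EV gave 0 called (0%), and 157 genes (0.966%) but 0 members at that level. The comparisons share libraries and are not independent of each other. Without G34W replicate 1, SKA1 was the 1 member at an unadjusted p under 0.05 against WT (258 genes, 1.62%), and the 1 member against EV (257 genes, 1.61%).

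As a list, the members were lowest in G34W replicate 1. Relative to each gene's mean over the 5 libraries, their median was 0.04 in EV replicate 2, 0.06 and 0.09 in WT, and -0.19 and 0.04 in G34W, beside 0.0034 in EV replicate 2, -0.04 and 0.08 in WT, and -0.14 and 0.06 in G34W over all genes tested. Their median log2 fold change, on the scale of log2(value + 1), was -0.13 for G34W against WT, beside -0.06 over all genes tested. After libraries were rescaled to a common median ratio it was -0.061, beside 0.015. Against EV it was -0.12 beside -0.03 (-0.069 beside 0.019 after rescaling), and for WT against EV -0.01 beside 0.02. Of the 49, 40 had a value below 0 for G34W against WT (81.6%, against 56.9% of all genes tested). Without G34W replicate 1 the count was 26 of 49 (53.1%, against 43.6% of all genes) and the median -0.03, beside 0.04 over all genes, and against EV the median was then -0.0042, beside 0.064.

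**Figure D2:**
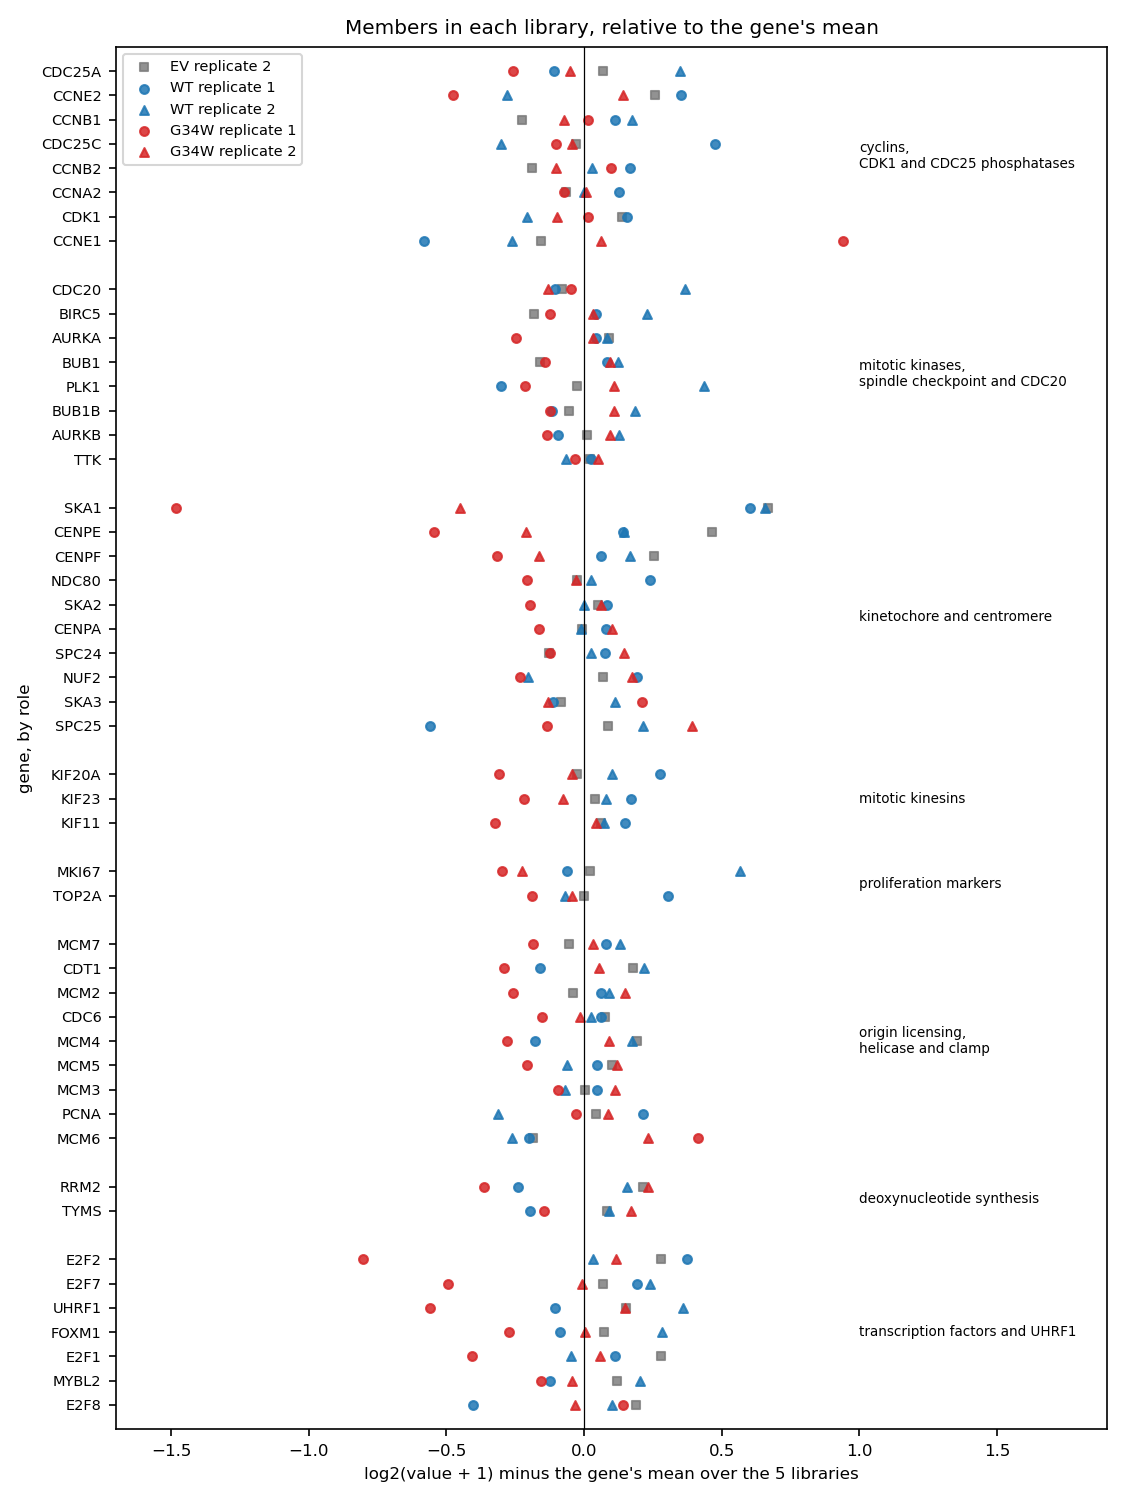
Level of each member in each of 5 libraries, as log2(value + 1) minus the gene's mean over the 5 (horizontal axis), by role (vertical axis). G34W replicate 1 lies to the left for most members (median -0.19, against 0.04 in G34W replicate 2), and SKA1 has the widest gap between groups.

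Kinetochore genes held the member with the largest difference. SKA1 encodes a subunit of the Ska complex, which keeps kinetochores attached to the ends of shortening microtubules, and lies at chr18:50375046-50394168 (GRCh38.p14). It measured 519 in EV replicate 2, 497 and 516 in WT, and 116 and 239 in G34W. Both G34W libraries were thus below the other 3 with no overlap, and WT and EV were almost level. The group means were 506 ± 13.4 for WT and 178 ± 86.7 for G34W (SD, n = 2). The log2 fold change against WT was -1.60 (95% confidence interval, CI, -2.55 to -0.65), with a limma adjusted p of 0.9998, and of at least 0.245 under each alternative tried. By unadjusted p (limma) it ranked 22 among all 16259 genes and 9 among those lower in G34W. The members were chosen with earlier results of these data known, so the rank and interval of SKA1 are descriptions and not independent support. G34W replicate 1 was the lower of its pair, and without it the log2 fold change was -1.08, from 1 G34W library. Against EV replicate 2 the log2 fold change was -1.63 (95% CI -2.80 to -0.47). Without G34W replicate 1 it was -1.12, from 1 library in each group.

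The partners of SKA1 in the Ska complex did not share that gap. SKA2 measured 3111 in EV replicate 2, 3183 and 2997 in WT, and 2616 and 3133 in G34W. SKA3 measured 889 in EV replicate 2, 872 and 1019 in WT, and 1091 and 861 in G34W. The groups overlapped for both, with log2 fold changes of -0.11 and 0.04 (0.020 and -0.13 without G34W replicate 1). CENPE is the kinesin motor that carries chromosomes to the spindle equator, and it measured 2123 in EV replicate 2, 1697 and 1699.8 in WT, and 1054 and 1326 in G34W. Again both G34W libraries were the lowest, below a pair of WT libraries that nearly coincided, and EV replicate 2 was the highest. Its log2 fold change was -0.52 (95% CI -1.12 to 0.07) against WT and -0.84 (95% CI -1.57 to -0.11) against EV, and without G34W replicate 1 it was -0.36 (-1.05 to 0.33) and -0.68 (-1.47 to 0.12).

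CENPF, a corona protein of the outer kinetochore chosen after its values were seen, measured 6882 in EV replicate 2, 6011 and 6469.8 in WT, and 4626 and 5147 in G34W. It had the same order as CENPE, at a log2 fold change of -0.35 (-0.28 without G34W replicate 1). Within the NDC80 complex, the main microtubule coupler, NDC80 (also named after its values were seen) measured 2756 in EV replicate 2, 3308 and 2851 in WT, and 2430.5 and 2748 in G34W. NUF2 measured 1828 in EV replicate 2, 1992 and 1516 in WT, and 1485 and 1969.5 in G34W. For NDC80 the G34W values were below both WT values, G34W replicate 2 almost level with EV replicate 2, whereas for NUF2 each group had a high and a low library. Log2 fold changes were -0.25 for NDC80 and -0.02 (95% CI -0.66 to 0.61) for NUF2, and -0.16 and 0.18 without G34W replicate 1. Of the 10 kinetochore and centromere members, 4 had both G34W libraries below both WT libraries (14.7% of all genes tested did) and 0 had both above (11.6%). Their median log2 fold change was -0.09, and -0.055 without G34W replicate 1.

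**Figure D3:**
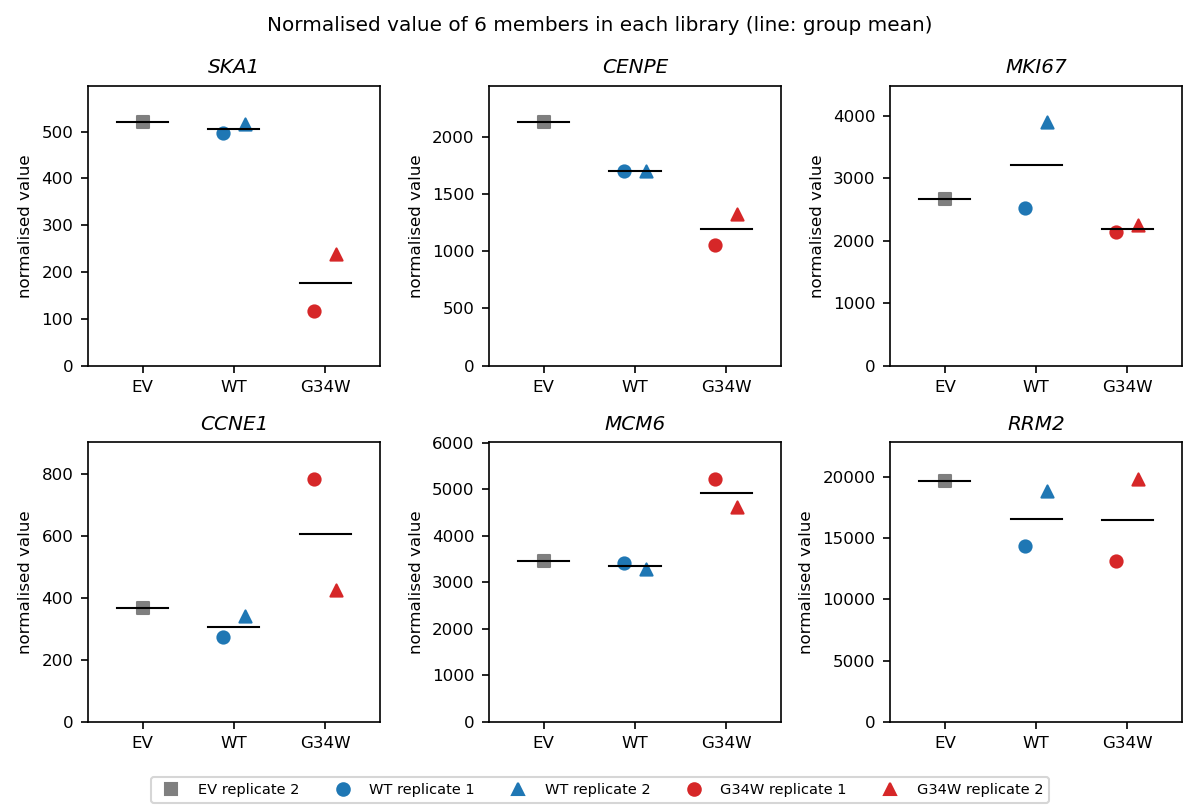
Normalised value (vertical axes, from 0) of 6 members in each library of 3 groups; points are libraries and lines are group means, and EV has 1 library. SKA1 and CENPE are lowest in both G34W libraries, CCNE1 and MCM6 highest, and RRM2 is lowest in both replicate 1 libraries.

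The 3 kinesins of the spindle, apart from CENPE, each lay lower in both G34W libraries than in the other 3, as did 9.55% of all genes tested. KIF20A, which works at the central spindle in cytokinesis, measured 9757 in EV replicate 2, 12003 and 10655 in WT, and 8017 and 9621 in G34W. KIF23, a subunit of centralspindlin, measured 5522 in EV replicate 2, 6047 and 5675 in WT, and 4607 and 5093 in G34W. KIF11, the motor that pushes spindle poles apart, measured 5083 in EV replicate 2, 5405 and 5126 in WT, and 3891 and 5020.2 in G34W. The gaps were small, and in KIF11 the library G34W replicate 2 was only a little below EV replicate 2. Their log2 fold changes were -0.36 (95% CI -0.92 to 0.19), -0.27 (95% CI -0.81 to 0.26) and -0.25 (95% CI -0.81 to 0.31) in the same order, and each interval covered 0. Without G34W replicate 1 they were -0.23 (-0.91 to 0.44), -0.20 (-0.85 to 0.45) and -0.07 (-0.71 to 0.58).

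Of the proliferation markers, MKI67, whose protein coats mitotic chromosomes and is stained as Ki-67, measured 2665 in EV replicate 2, 2516 and 3889 in WT, and 2136 and 2247 in G34W. Both G34W values were the lowest of the 5, but WT replicate 2 stood far above the rest. The log2 fold change was -0.51 (95% CI -1.15 to 0.12), and it was -0.20 when WT replicate 2 was left out, -0.83 when WT replicate 1 was and -0.48 when G34W replicate 1 was. TOP2A, the topoisomerase that untangles sister chromatids, measured 21178 in EV replicate 2, 26153 and 20176 in WT, and 18563 and 20554 in G34W. Here WT replicate 1 was the high library, and the other 4 lay close together. Its log2 fold change was -0.23 (95% CI -0.82 to 0.36), -0.047 without WT replicate 1 and -0.16 without G34W replicate 1.

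Mitotic kinases, the spindle checkpoint and CDC20 differed little. CDC20, the activator of the anaphase-promoting complex, measured 9536 in EV replicate 2, 9366 and 12991 in WT, and 9747 and 9200.0 in G34W. WT replicate 2 was high and the other 4 libraries were nearly level, so the log2 fold change of -0.22 (95% CI -0.81 to 0.37) rested on 1 library (0.016 without it, and -0.26 without G34W replicate 1). BIRC5, survivin of the chromosomal passenger complex, measured 12234 in EV replicate 2, 14290.3 and 16250.4 in WT, and 12746 and 14191 in G34W. TTK, the checkpoint kinase MPS1, measured 2607 in EV replicate 2, 2618 and 2454 in WT, and 2511 and 2663 in G34W. BIRC5 was lower in G34W than in WT, narrowly, and lowest in EV, and TTK was level throughout. Their log2 fold changes were -0.18 (95% CI -0.73 to 0.37) and 0.03 (95% CI -0.52 to 0.57), and -0.10 and 0.072 without G34W replicate 1. Across the 8 members of this role, PLK1, BUB1, BUB1B, AURKA and AURKB included, log2 fold changes ran from -0.22 to 0.03, and from -0.26 to 0.077 without G34W replicate 1.

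Of the 8 cyclins and their partners, 7 had a log2 fold change below 0 (87.5%, against 56.9% of all genes tested), and CCNE1 was above. Without G34W replicate 1 the count below 0 was 6 (75%, against 43.6%). CCNE1, cyclin E1, activates CDK2 at entry into S phase and measured 366 in EV replicate 2, 273 and 340.4 in WT, and 784 and 426 in G34W. Both G34W libraries were above the other 3, but G34W replicate 1 was far above G34W replicate 2, which was nearer to EV. The log2 fold change was 0.92 (95% CI 0.04 to 1.81), and 0.48 (-0.50 to 1.47) without G34W replicate 1. CCNE2, cyclin E2, named after its values were seen, measured 1233 in EV replicate 2, 1317 and 848 in WT, and 741 and 1137 in G34W. Its groups overlapped, with G34W replicate 1 the lowest library, and the log2 fold change of -0.20 became 0.11 without it. CDC25A, the phosphatase that frees CDK2 of its inhibitory phosphate, measured 4791 in EV replicate 2, 4232 and 5814 in WT, and 3825 and 4416 in G34W. It overlapped too, at a log2 fold change of -0.27 (95% CI -0.86 to 0.32) that was -0.042 without WT replicate 2, its highest library, and -0.17 without G34W replicate 1.

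The mitotic pair of CDK1 and cyclin B1 starts mitosis. CCNB1, cyclin B1, measured 10675 in EV replicate 2, 13490.5 and 14081 in WT, and 12622 and 11874 in G34W. The G34W libraries were below the WT ones and above EV replicate 2, so the order depended on the control. Its log2 fold change was -0.17 (95% CI -0.71 to 0.36) against WT and 0.20 (95% CI -0.46 to 0.85) against EV, and -0.22 and 0.15 without G34W replicate 1. CDK1 measured 5606 in EV replicate 2, 5676 and 4409 in WT, and 5141 and 4765 in G34W. Its groups overlapped, and the log2 fold change of -0.02 (95% CI -0.58 to 0.55) was among the smallest of the members and turned to 0.054 when libraries were rescaled (-0.070 without G34W replicate 1).

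The genes of origin licensing, the helicase and the clamp lay on both sides of 0. MCM6, a subunit of the MCM helicase, measured 3454 in EV replicate 2, 3417 and 3274 in WT, and 5223 and 4606 in G34W. Both G34W libraries were above the other 3, which lay within a narrow band. The log2 fold change was 0.55 (95% CI 0.01 to 1.09), and 0.46 (-0.19 to 1.11) without G34W replicate 1, with an interval that then covered 0. Against EV it was 0.51 (95% CI -0.15 to 1.16), and 0.42 without that library.

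The other helicase subunits did not share the higher values of MCM6. MCM7 measured 21276 in EV replicate 2, 23400.4 and 24197 in WT, and 19459.6 and 22610.4 in G34W. MCM2 measured 23649.9 in EV replicate 2, 25374 and 25902 in WT, and 20357 and 26954 in G34W. MCM3 measured 14659 in EV replicate 2, 15105 and 13932 in WT, and 13670.4 and 15784 in G34W. For MCM7 both G34W values were below both WT values, with EV replicate 2 between the G34W values, and for MCM2 and MCM3 the 2 G34W libraries were the lowest and the highest of the 5. In the same order, log2 fold changes were -0.18 (95% CI -0.75 to 0.38), -0.13 (95% CI -0.73 to 0.47) and 0.02 (95% CI -0.53 to 0.57), and -0.074, 0.072 and 0.12 without G34W replicate 1. Those of MCM4 and MCM5 were -0.10 and -0.04, and turned to 0.090 and 0.13 without that library. PCNA, the sliding clamp of the replication fork, measured 12740.5 in EV replicate 2, 14336 and 9942 in WT, and 12094 and 13110.1 in G34W. WT replicate 2 was its lowest library, and its log2 fold change was 0.08 (95% CI -0.53 to 0.68) (0.14 without G34W replicate 1). Having both G34W libraries above both WT libraries was thus seen in 1 of 6 helicase subunits, which assemble in equal numbers, and in 11.6% of all genes, so the count is near the background.

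The 2 genes of deoxynucleotide synthesis were lowest in libraries that share a number and not a group. RRM2, the small subunit of ribonucleotide reductase, measured 19634 in EV replicate 2, 14341 and 18853 in WT, and 13145 and 19856 in G34W. TYMS, thymidylate synthase, measured 2625 in EV replicate 2, 2161 and 2642 in WT, and 2240.3 and 2789 in G34W. In both genes the 2 libraries numbered 1 were lowest, and the 3 numbered 2, EV included, were higher and close together. Log2 fold changes of -0.03 (95% CI -0.69 to 0.64) and 0.06 (95% CI -0.52 to 0.65) were accordingly near 0. Without G34W replicate 1 they were 0.27 (-0.48 to 1.02) and 0.22 (-0.46 to 0.91).

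Of the 7 members that are transcription factors or UHRF1, 6 were lowest in G34W replicate 1 and E2F8 was not. E2F2, an activator of S-phase genes, measured 888 in EV replicate 2, 947 and 747 in WT, and 419 and 793 in G34W. E2F7, a repressor that E2F1 itself induces, measured 3196 in EV replicate 2, 3482 and 3599 in WT, and 2159.5 and 3028 in G34W. In E2F2 G34W replicate 2 lay among the WT values, while in E2F7 both G34W libraries were below the other 3. The log2 fold changes were -0.55 (95% CI -1.37 to 0.28) and -0.47 (95% CI -1.06 to 0.13), and -0.09 (-0.89 to 0.72) and -0.23 (-0.88 to 0.43) without G34W replicate 1.

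E2F1, the founding activator of the family, measured 6883 in EV replicate 2, 6136 and 5489 in WT, and 4278 and 5908 in G34W. FOXM1, the factor that drives G2 and mitotic genes, measured 4285 in EV replicate 2, 3837 and 4958 in WT, and 3373 and 4085 in G34W. MYBL2, its partner on CHR promoters, measured 6750.5 in EV replicate 2, 5699 and 7152 in WT, and 5576 and 6022 in G34W. G34W replicate 1 was the lowest of the 5 in each, and G34W replicate 2 lay within the range of WT. The log2 fold changes of -0.21 (95% CI -0.79 to 0.38), -0.23 (95% CI -0.81 to 0.35) and -0.14 (95% CI -0.69 to 0.41) had intervals that covered 0, and they were 0.026, -0.094 and -0.084 without G34W replicate 1. UHRF1, which brings DNA methylation to newly made strands, had 13825 in EV replicate 2, 11565 and 15968 in WT, and 8439.5 and 13798 in G34W (named after its values were seen), with the same low library and a log2 fold change of -0.33 that turned to 0.022 without it. E2F8, the member with the lowest mean and also named after its values were seen, measured 222 in EV replicate 2, 147 and 209 in WT, and 214 and 190.1 in G34W, with WT replicate 1 the lowest library and a log2 fold change of 0.21 (0.12 without G34W replicate 1).

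**Figure D4:**
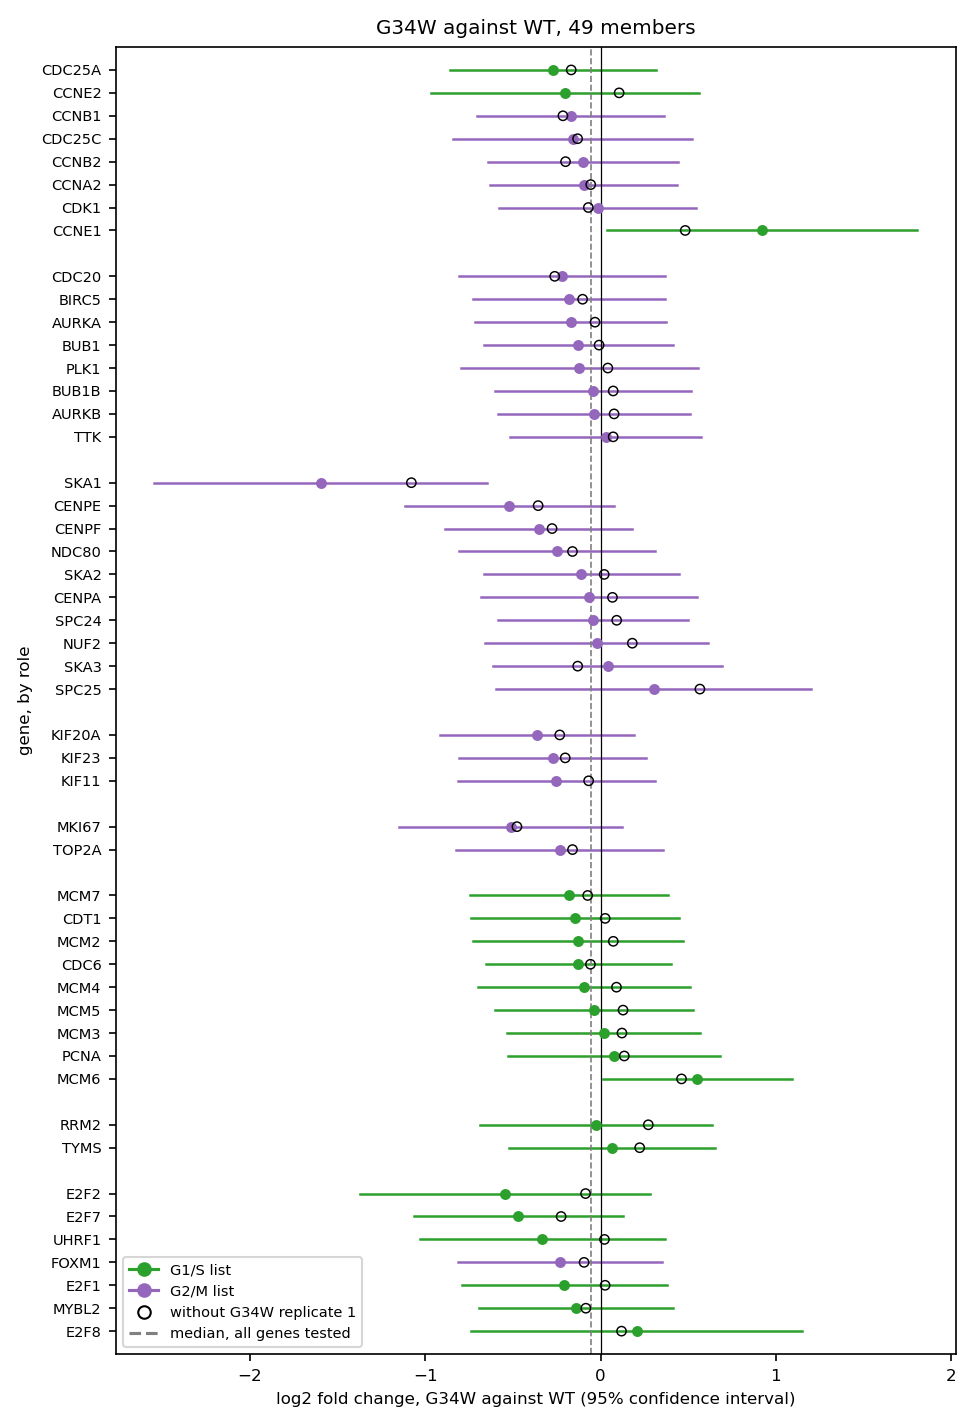
Log2 fold change of G34W against WT (horizontal axis) for the 49 members by role (vertical axis), with 95% confidence intervals from limma; open circles leave out G34W replicate 1 and the dashed line is the median of all genes tested (-0.06). The intervals of SKA1, CCNE1 and MCM6 do not cover 0; with that library left out, the estimates shrink to -1.08, 0.48 and 0.46.

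Counted by overlap, with both G34W libraries below both WT libraries, there were 14 of 49 members (28.6%), against 14.7% of all genes tested. With both above there were 2 of 49 (4.08%), against 11.6%. The 14 were SKA1, CENPE, CENPF, NDC80, KIF11, KIF20A, KIF23, AURKA, BIRC5, CCNB1, MKI67, E2F7, CDC6 and MCM7, and the 2 were CCNE1 and MCM6; those outside the naming rule were chosen after their values were seen. When EV replicate 2 also had to lie on the far side, 11 members remained below (9.55% of all genes) and 2 above (7.87%). G34W replicate 2 alone was below both WT libraries in 17 members, or 34.7% (23.2% of all genes), and above both in 11, or 22.4% (31.8%).

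Libraries differed slightly in the general level of their values, and after rescaling to a common median ratio the shares of all genes were 14.1% below and 14.2% above. The members then numbered 14 below, 11 of them as before, and 3 above: BUB1, CDC25A and FOXM1 entered the lower set, CCNB1, CDC6 and NDC80 left it, and TYMS joined CCNE1 and MCM6. By phase and without rescaling, 11 of 29 G2/M members (37.9%) and 3 of 20 G1/S members (15%) had both G34W libraries below, against 14.7% of all genes. In the same order, 0 and 2 had both above, against 11.6%. After rescaling, 11 and 3 were below, and 0 and 3 above, against 14.1% and 14.2%. With G34W replicate 2 alone, not rescaled, 14 (48.3%) and 3 (15%) were below, against 23.2% of all genes. Above were 4 (13.8%) and 7 (35%), against 31.8%. In bulk libraries fewer cells in G2 or mitosis and less mRNA of these genes in each such cell cannot be told apart. Against EV replicate 2 the 2 lists had another order: the median log2 fold change of G34W was -0.05 for the G2/M list and -0.19 for the G1/S list, against -0.16 and -0.13 when WT was the reference. These became -0.0042 and -0.040 against EV, and -0.094 and 0.081 against WT, when G34W replicate 1 was left out.

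Other genes of the same pathways, 168 in 6 lists, were tested in the same fit. None was called, and 1, E2F5, had an unadjusted p under 0.05 between G34W and WT (limma). Of the 168, 36 (21.4%) had both G34W libraries below both WT libraries and 12 (7.14%) above, with a median log2 fold change of -0.14 (-0.034 without G34W replicate 1). The kinetochore and spindle list had 17 of 51 below and 1 above, and chromosome structure, anaphase and cytokinesis had 6 of 23 below and 1 above. Checkpoint and homologous repair had 5 of 20 below and 0 above. Origin firing and the fork had 7 of 44 below and 5 above. CDK inhibitors and the RB family had 0 of 11 below and 1 above, and G1 cyclins, CDKs and E2F partners had 1 of 19 below and 4 above. Over all genes tested the shares were 14.7% below and 11.6% above, and differences between these short lists were not tested. The counts moved with scaling and library. In the same order of lists they were, after rescaling, 19, 8, 3, 11, 0 and 1 below and 2, 2, 1, 2, 2 and 5 above, against 14.1% and 14.2% of all genes. For G34W replicate 2 alone they were 20, 8, 5, 14, 1 and 1 below and 3, 5, 5, 11, 7 and 7 above, against 23.2% and 31.8% of all genes.

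**Figure D5:**
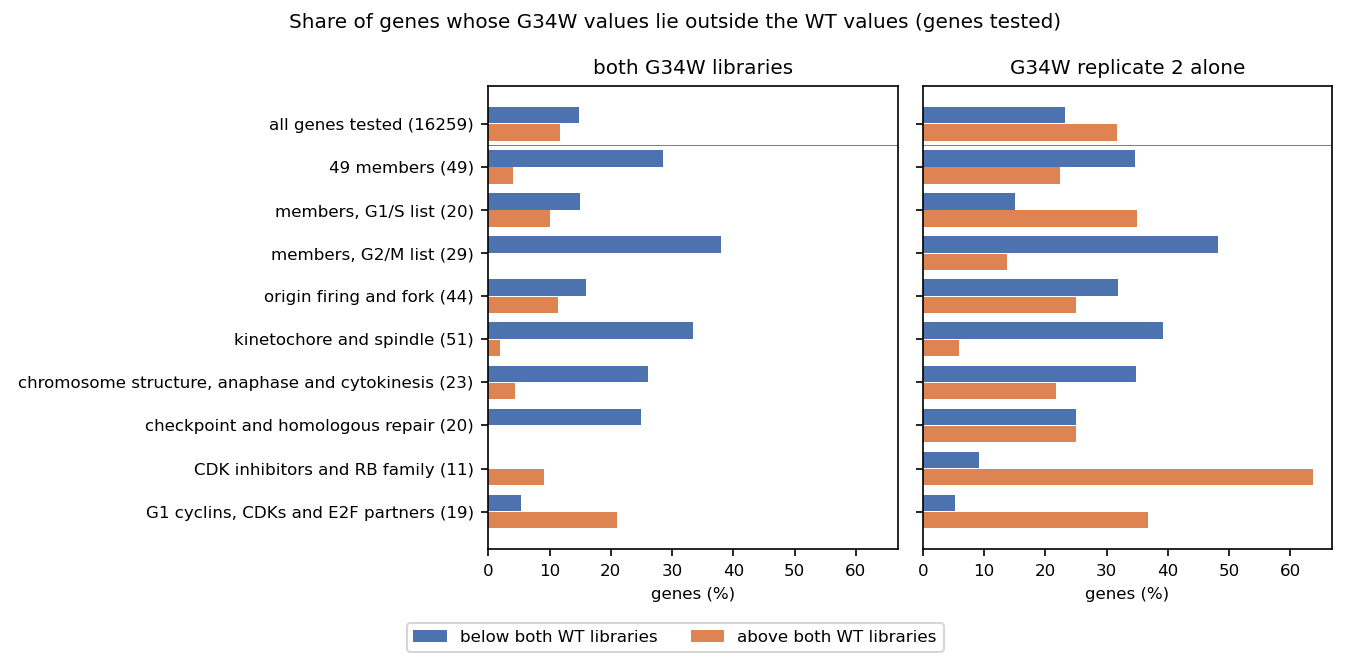
Share of genes (horizontal axis, %) with G34W values below or above both WT libraries, for all genes tested, the members and 6 lists of other pathway genes (vertical axis, number of genes in brackets); left, both G34W libraries, and right, G34W replicate 2 alone. The G2/M members were below in 37.9% and 48.3%, against 14.7% and 23.2% of all genes.

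Within the kinetochore and spindle list, CENPP, a subunit of the inner kinetochore, had the lowest log2 fold change and measured 514 in EV replicate 2, 995 and 905 in WT, and 575 and 642 in G34W. G34W was below WT without overlap, and EV replicate 2 was lower still. The log2 fold change was -0.64 (95% CI -1.30 to 0.02), and -0.56 without G34W replicate 1. At the other end, OIP5, which helps to deposit the centromeric histone CENPA, measured 505 in EV replicate 2, 583 and 622 in WT, and 776 and 699.6 in G34W. Its G34W libraries were the highest, at a log2 fold change of 0.29 (95% CI -0.38 to 0.96) (0.22 without G34W replicate 1).

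BRCA2, a gene of homologous repair, was lowest in its list and measured 1189.5 in EV replicate 2, 1454 and 1211 in WT, and 853 and 901 in G34W. Both G34W libraries were below the other 3, and the log2 fold change was -0.60 (95% CI -1.21 to 0.02) (-0.56 without G34W replicate 1). WEE1, the kinase that holds CDK1 inactive, was highest in that list and measured 1717 in EV replicate 2, 1549 and 979 in WT, and 2206 and 1367 in G34W. Its groups overlapped, with a log2 fold change of 0.50 (95% CI -0.27 to 1.26) that was only 0.15 without G34W replicate 1. In the other structural lists the extremes were POLE (-0.46 (95% CI -1.26 to 0.35)) and RPA3 (0.34 (95% CI -0.31 to 0.99)) for the fork, and CIT (-0.39 (95% CI -0.98 to 0.19)) and ESPL1 (0.17 (95% CI -0.43 to 0.77)) for cytokinesis and anaphase. Leaving out G34W replicate 1 took POLE to -0.016, RPA3 to 0.29, CIT to -0.22 and ESPL1 to 0.40, so the value of POLE rested on that library.

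E2F5, a repressive E2F that works with the RB family, had the highest log2 fold change of the other genes and measured 308 in EV replicate 2, 392 and 293 in WT, and 1185 and 456 in G34W. G34W replicate 1 was far above the rest, and G34W replicate 2 was also above WT and EV. The log2 fold change was 1.11 (95% CI 0.07 to 2.16), and 0.43 (-0.57 to 1.42) without G34W replicate 1. MYBL1, the lowest of that list, measured 1967 in EV replicate 2, 1734 and 1581 in WT, and 769.9 and 1643 in G34W. It was low in G34W replicate 1 alone, at a log2 fold change of -0.56 (95% CI -1.38 to 0.26) that became -0.01 (-0.70 to 0.68) without it.

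For 4 regulators upstream of E2F the values of G34W and WT overlapped. CCND1, cyclin D1, measured 26524 in EV replicate 2, 22216 and 42315 in WT, and 19048 and 23880.0 in G34W. CDKN1A, the p21 inhibitor of CDKs, measured 34788 in EV replicate 2, 39307 and 20723 in WT, and 17518 and 27452 in G34W. CDKN2A, the locus of p16, measured 8211 in EV replicate 2, 6988 and 9362 in WT, and 6505 and 10466 in G34W. In each of these 3 the libraries of one group were further apart than the group means, and WT replicate 2 was highest for CCND1, with WT replicate 1 highest for CDKN1A. RB1, the retinoblastoma protein itself, measured 2089 in EV replicate 2, 1789.7 and 1936 in WT, and 1862 and 2209 in G34W. It was nearly level. From CCND1 to RB1, the log2 fold changes were -0.52 (95% CI -1.29 to 0.24), -0.38 (95% CI -1.20 to 0.44), 0.03 (95% CI -0.65 to 0.71) and 0.12 (95% CI -0.45 to 0.70), and -0.36, -0.056, 0.37 and 0.25 without G34W replicate 1. That of CCND1 rested largely on WT replicate 2, and was -0.059 without it. With single libraries left out, that of RB1 ran from 0.00073 to 0.25. CDKN1C, the p57 inhibitor, was the highest of its list at 0.82 (95% CI -0.67 to 2.30), on values of only 27.8 to 68.9. Its log2 fold change was 0.72 without G34W replicate 1, and ran from 0.45 to 1.18 with single libraries left out. Both G34W libraries were above the other 3. CCND2, cyclin D2, named after its values were seen, also had both G34W libraries above the other 3 and measured 1806 in EV replicate 2, 1996 and 1899 in WT, and 2397 and 2886 in G34W. Its log2 fold change was 0.43 (95% CI -0.13 to 1.002), and 0.57 (-0.11 to 1.24) without G34W replicate 1.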

How the data were processed

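RNA-seq values of 6 libraries were used. From kallisto and Ensembl GRCh38 transcript models the authors obtained estimated counts, which tximport summed by gene and DESeq2 normalised. The deposited values are therefore a normalised signal per gene and not the read counts that the design had allowed for. No depth could be taken from them, so precision was judged from the spread between libraries. Column sums were 41985190 for EV replicate 2, 40778682 and 48024590 for WT, 38821143.5 and 44687077 for G34W, and 157595150 for EV replicate 1, which was left out.

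Values were transformed as log2(value + 1), a scale that understates the fold changes of low genes. Genes with a mean of at least 10 over the 5 libraries were fitted with limma 3.58.1 in R 4.3.3, with group means, no covariates, a variance trend, two-sided tests and Benjamini-Hochberg adjustment over all 16259 genes. The threshold was an adjusted p of 0.05. EV, with 1 library, was assumed to vary like the other groups, and 2 residual degrees of freedom remained. With a WT or G34W library left out, that group too had 1 library and no spread of its own. The fit was also run on simulated data, but the outcome is not given here and no result rests on it. Tables were made with Python 3.11.15 and pandas 2.3.3, intervals with scipy 1.17.1 and figures with matplotlib 3.10.9.

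The members and lists were chosen with earlier results of these data known. Members named are SKA1, MKI67, TOP2A, CCNB1, CDK1, CDC20, MCM2, PCNA, E2F1, FOXM1, any past the threshold, and in each of 8 roles the 2 with the largest and the 1 with the smallest absolute log2 fold change in G34W against WT. No member lay near the filter on low values, the lowest mean being 196 for E2F8. Of the 6 other lists, the highest and the lowest gene are named, with CDKN1A, CDKN2A, RB1 and CCND1. Alternatives covered the pseudocount, filter, variance trend, scaling, replicate number, EV replicate 1 and each library left out. Gene positions are those of RefSeq on GRCh38.p14, matched by symbol for all 49 members. There, 11 members overlap another protein-coding gene, among them KIF20A (CDC23), MCM7 (AP4M1), TYMS (ENOSF1) and FOXM1 (ITFG2 and RHNO1). The sources used here name a library kit that marks strand and also describe an Illumina protocol that does not, and they do not give whether quantification used strand, so the values of these genes are less certain.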

Additional observations from a re-analysis of the deposited data

Results flagged for a closer look

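EV replicate 1, the library left out, held 7 members far above their level in each of the 5 libraries compared, EV replicate 2 included, although it was listed at 0 for 31 members. They were CDK1 (108257 in EV replicate 1), KIF11 (121681), MKI67 (96551), E2F7 (88149.5), UHRF1 (238015), FOXM1 (113330.3) and E2F8 (8881). In EV replicate 2 the same genes were 5606, 5083, 2665, 3196, 13825, 4285 and 222. Of these 7, CDK1, KIF11 and MKI67 lie on chromosome 10, E2F8 on chromosome 11, E2F7 and FOXM1 on chromosome 12 and UHRF1 on chromosome 19. CCNE1 and SPC24, also on chromosome 19, were at 0 and 86.3 in EV replicate 1, against 366 and 6255 in EV replicate 2. Whether position bears on these values was not tested. The other 11 members were above 0 in EV replicate 1 but did not exceed the highest of the 5 libraries. No group of the series has 4 or more libraries, so no test for an outlying library within a group was made.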

How the results depend on the processing

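With 2 libraries a group and 1 for EV, intervals were wide (median standard error of the members 0.26 on the log2 scale), and an unadjusted p that misses 0.05 does not show that values did not differ. No member passed limma's adjusted p of 0.05 in any comparison under any alternative run, and the adjusted p of the genes named was at least 0.245. Of all genes, G34W against WT called 6 without WT replicate 1 and 1 without WT replicate 2. G34W against EV called 1 with log2(value + 0.1) and 1 without G34W replicate 1, and WT against EV called 1, 4 and 1 with log2(value + 0.1), without WT replicate 1 and without G34W replicate 1. The other alternatives called 0. Count-based tests were not run, because the values are not whole reads.

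At an unadjusted p under 0.05 (limma), G34W against WT gave 3 members, beside 439 of all genes tested (2.70%). There were 2 members with a mean of at least 50 (MCM6 dropped out) and 3 without the filter (CENPE in place of CCNE1). There was 1 without the variance trend, and there were 0 with all 6 libraries. With a library left out, the number was highest without G34W replicate 2, where G34W replicate 1, with its stem cell transcripts, alone stood for G34W. G34W against EV gave 2 members, 4 without the filter, 1 without the trend and 0 with all 6 libraries, and 1 to 3 with a library left out. With all 6 libraries the median log2 fold change of members became 5.32 for G34W against EV and 5.35 for WT against EV, and that of CENPE against EV 4.68, since EV replicate 1 holds zeros. With a library left out the median ran from -0.25 to -0.03 for G34W against WT, -0.22 to -0.0042 for G34W against EV, and -0.01 to 0.01 for WT against EV. Counts without G34W replicate 1 and after rescaling were both chosen after seeing the data. They were 17 and 14 members below both WT libraries (14 with all), against 23.2% and 14.1% of all genes (14.7% with all). Above both were 11 and 3 members (2 with all), against 31.8% and 14.2% of all genes (11.6% with all). Without G34W replicate 1 only G34W replicate 2 has to lie outside WT, a looser condition, so that count below or above cannot be the smaller one.

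The replicate number pairs libraries in number only: over all genes tested, same-numbered libraries deviated with a correlation of 0.0945. Over the 49 members the correlation was -0.0544. With the replicate block, 0 members were called in each comparison. The counts at an unadjusted p under 0.05 were then 4, 2 and 0, and the medians -0.13, -0.06 and 0.07.

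Of the 49 members, 27 had a sign of G34W against WT that turned with 1 library left out, and 8 after rescaling. Among genes named by rule, rescaling turned the log2 fold change of CDK1 to 0.054, NUF2 to 0.047 and RRM2 to 0.044, and among other members it turned BUB1B, AURKB, SPC24, CENPA and MCM5. Leaving out 1 library turned the sign of these genes named by rule, with ranges over the libraries left out: CDK1 (-0.20 to 0.17), CDC20 (-0.46 to 0.016), MCM2 (-0.33 to 0.072), PCNA (-0.19 to 0.34), E2F1 (-0.44 to 0.026), TTK (-0.017 to 0.076), NUF2 (-0.23 to 0.18), MCM3 (-0.086 to 0.12), TYMS (-0.093 to 0.22), RRM2 (-0.32 to 0.27), MYBL2 (-0.30 to 0.024), ESPL1 (-0.056 to 0.40), CDKN1A (-0.84 to 0.082) and CDKN2A (-0.31 to 0.37). The other members that turned were UHRF1 (-0.69 to 0.022), CCNE2 (-0.52 to 0.11), SKA2 (-0.24 to 0.02), SKA3 (-0.13 to 0.21), MCM4 (-0.28 to 0.09), MCM5 (-0.20 to 0.13), E2F8 (-0.048 to 0.46), PLK1 (-0.49 to 0.25), BUB1B (-0.19 to 0.11), AURKB (-0.15 to 0.077), CDT1 (-0.33 to 0.041), CENPA (-0.20 to 0.068), CCNB2 (-0.20 to 0.00069), CDC25C (-0.55 to 0.23), SPC24 (-0.18 to 0.092) and SPC25 (-0.084 to 0.69). Leaving out WT replicate 2 more than halved BIRC5 to -0.088, FOXM1 to -0.048 and RPA3 to 0.075 with the sign kept. The causes were not tested.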
